A study of Homo sapiens with 9 samples.

Results

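TAF1D is a subunit of SL1, the promoter selectivity factor of RNA polymerase I, and the genes described here encode its functional partners in making ribosomal RNA and ribosomes: the SL1 subunits TAF1A and TAF1C, the factors UBTF and TTF1, the polymerase subunits POLR1B, POLR1E and POLR2H, the nucleolar protein GAR1 and the ribosomal protein RPS24. They were chosen by gene symbol, with earlier results of these data known. The deposited table holds 27 of their transcripts among 20909 in all, and 9 genes among 6819. Total RNA was sequenced from Caki-1, a human line of clear cell renal cell carcinoma, in 9 libraries. The 3 control libraries have the genotype WT. TAF1D was knocked down with shRNA in the 6 others, which form the groups SH1 and SH3 with 3 libraries each. Neither the meaning of the names SH1 and SH3 nor the treatment of the controls is given, and it is not stated whether libraries of a group are separate cultures. If they are not, the p-values measure only technical spread between these samples.

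RNA polymerase I transcribes the ribosomal RNA genes in the nucleolus. UBTF binds along the ribosomal DNA, and SL1, built from TBP and its TAF1 subunits, binds the core promoter and recruits the polymerase. TTF1 binds terminator elements at the ends of the transcribed unit and ends transcription there. The precursor RNA is then cut, modified by small nucleolar ribonucleoproteins and packed with ribosomal proteins into the 2 ribosomal subunits.

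The table is a selection that bears on every value here. All 20909 transcripts differ by at least 2-fold in estimated count between control 1 and SH1 1, whereas among the remaining 35 library pairs this share ran from 51.51% to 64.85%. Of the 27 member transcripts, 18 were higher in control 1 and 9 in SH1 1, and over all transcripts 47.58% were higher in control 1. The RPS24 calls, the SH1 folds of TAF1A and POLR1B and the lean of the sums in SH1 are therefore also given without them. Most other values that use these libraries are given only with them. TAF1D has 0 transcripts in the table, so the level of the targeted gene was not analysed here. Listed estimated counts add up to 1358215 to 1596467 per library, which is not the library's depth. The TPM of the listed transcripts adds up to 4.202% to 5.176% of all TPM. Of 19 renal carcinoma and tubule markers 5 are in the table (PAX8, VEGFA, MME, CDH6 and MET), and of 14 markers of other cell types 2 (CD68 and PDGFRB); the others were not analysed here. The summed level of the 5 renal markers ran from 10.27 to 11.88 FPKM (fragments per kilobase of transcript, scaled to the library) in control, 13.33 to 20.85 in SH1 and 20.23 to 27.02 in SH3. That of the 2 markers of other cell types ran from 8.0 to 12.79 FPKM in control, 13.36 to 18.12 in SH1 and 13.04 to 14.35 in SH3. Both lists thus lay over all controls in every knockdown library. In control, SH1 and SH3, mean FPKM was 2.26, 5.42 and 5.3 for PAX8, 6.44, 8.10 and 12.2 for VEGFA, 0.16, 1.28 and 0.347 for MME, 0.917, 0.303 and 0.103 for CDH6, and 1.04, 1.86 and 4.81 for MET. It was 10.8, 15.3 and 13.5 for CD68 and 0.27, 0.26 and 0.297 for PDGFRB. In edgeR on gene sums the receptor gene MET rose in SH3 against control (log2 fold change 2.34 ± 0.29 SE, adjusted p = 0.01896) and by 1.62 ± 0.26 in the average of both knockdown groups (adjusted p = 0.0306). The cadherin gene CDH6 fell by 2.41 ± 0.36 in that average (edgeR adjusted p = 0.0246). The part of these markers in the results below was not tested.

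The listed transcript with the highest mean FPKM was RPS24 NM_033022, one of several splice forms of a ribosomal protein gene of the small subunit on chromosome 10. The splice forms differ in where the reading frame ends, and the sequences are shown because the tests turn on which form is listed. In GENCODE v29 (GRCh38), the last bases of a coding exon shared by all 3 forms lie at chr10:78037257-78037304 on the plus strand. Lower case marks these 48 shared bases, and capitals mark the bases that each form adds up to and including its stop codon.
RPS24 NM_033022: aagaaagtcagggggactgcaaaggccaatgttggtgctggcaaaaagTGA
RPS24 NM_001142284: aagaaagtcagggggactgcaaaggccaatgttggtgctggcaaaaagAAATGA
RPS24 NM_001026: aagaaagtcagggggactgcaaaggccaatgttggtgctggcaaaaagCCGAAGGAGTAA
NM_033022 adds 3 bases, NM_001142284 adds 6 and NM_001026 adds 12. Both listed forms contain a 22-base exon at chr10:78040204-78040225, and NM_001142284 also holds an 18-base exon at chr10:78037965-78037982. NM_001026 is shown for comparison and was not analysed here. RPS24 has processed copies elsewhere in the genome and its splice forms share most of their sequence, so the split of estimated counts between them is uncertain.

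RPS24 NM_033022 fell in SH1 against control and was higher in SH3 than in SH1. Forms that are not in the table, NM_001026 among them, are not part of the RPS24 sum. The level of the whole gene was therefore not analysed here. In these bulk samples, fewer cells of a kind and less RNA per cell cannot be told apart. NM_033022 had 328.11, 343.10 and 513.13 FPKM in the control libraries. It had 155.04, 183.75 and 155.18 FPKM in SH1, and 590.36, 641.61 and 533.84 FPKM in SH3. All SH1 libraries lay under all control libraries and all SH3 libraries lay over them, with control 3 (513.13) next to SH3 3 (533.84). NM_033022 has the highest mean FPKM of the 20909 listed transcripts (rank 1) and holds 0.09476% to 0.4229% of a library's listed counts.

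In edgeR's quasi-likelihood test over 17495 transcripts, with Benjamini-Hochberg adjustment, NM_033022 fell by 1.36 ± 0.18 (log2, SE) in SH1 against control (adjusted p = 0.03138), to 0.389 of the control level. Of 23 tested member transcripts, 1 thus passed the threshold of 0.05 in that comparison, where 0.0629% of all tested transcripts were called lower and 0.0743% higher. The difference between SH3 and control, 0.54 ± 0.18, did not pass (edgeR adjusted p = 0.8207, where 0.0286% of transcripts were called higher and 0% lower). Tested directly, SH3 was above SH1 by 1.91 ± 0.19 (edgeR adjusted p = 0.009769), where 0.0629% of transcripts were called higher and 0.0343% lower. The SH1 call is close to the threshold: it was lost in DESeq2 (adjusted p = 0.07013) and without any 1 library other than control 1 (edgeR adjusted p 0.08696 to 0.1672). The call of SH3 against SH1 was lost without any 1 SH1 library or without SH3 1 (edgeR adjusted p 0.06123 to 0.07726). Without control 1 and SH1 1 the log2 fold change was -1.43 with an edgeR adjusted p of 0.1711, and SH3 against SH1 was 1.85 with an adjusted p of 0.09272.

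Summing the 2 listed RPS24 transcripts per gene gave calls in the same comparisons. The sums were 332.99, 345.63 and 516.85 FPKM in control, 156.96, 184.80 and 159.68 FPKM in SH1, and 596.47, 645.82 and 537.67 FPKM in SH3. In edgeR over 6398 gene sums, RPS24 fell by 1.41 ± 0.19 in SH1 (adjusted p = 0.0111), was 0.49 ± 0.19 in SH3 against control (adjusted p = 0.5373) and rose by 1.91 ± 0.20 in SH3 against SH1 (adjusted p = 0.003432). Without control 1 and SH1 1 both calls held (edgeR adjusted p = 0.04738 and 0.02573, where 0.487% of sums were called lower in SH1 and 0.518% higher in SH3 against SH1). The SH1 call was lost without SH1 1 (edgeR adjusted p = 0.05951), without SH1 3 (0.0556) or with only the groups compared in the fit (0.08186).

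**Figure D1:**
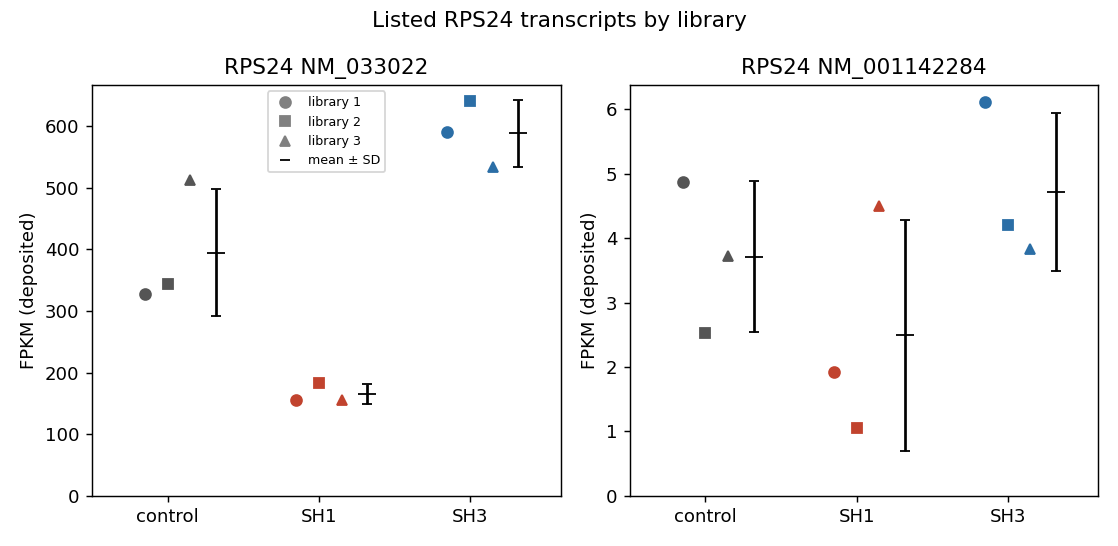
FPKM of the 2 listed RPS24 transcripts (vertical axes, from 0, on different scales) in each library of control, SH1 and SH3; marker shapes are library numbers, and the black bars are the mean ± SD of 3 libraries. For NM_033022 the SH1 libraries (155.04 to 183.75) lie under and the SH3 libraries (533.84 to 641.61) over all controls, whereas the groups overlap for NM_001142284.

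The other listed form, NM_001142284, had a mean of 3.64 FPKM over the 9 libraries, against 383 FPKM for NM_033022. It had 4.88, 2.53 and 3.72 FPKM in control, 1.92, 1.05 and 4.50 FPKM in SH1, and 6.11, 4.21 and 3.83 FPKM in SH3. Its groups overlapped: SH1 3 was above control 2 and control 3. It did not pass the edgeR test in SH1 (adjusted p = 0.9998) or in SH3 (adjusted p = 1).

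Among all tested transcripts with a mean of at least 1 FPKM (4935 candidates), 5 of other genes lay nearest to NM_033022 in their pattern over the 9 libraries, by root mean square difference of centred log2(FPKM + 1). They were MARK3 XM_017021301 (0.20), PFN2 NM_002628 (0.22), PPM1M XM_005264881 (0.24), VEGFA NM_001287044 (0.25) and TAGLN NM_003186 (0.26). PFN2, which encodes the actin-binding profilin 2, had mean FPKM of 101 in control, 37.1 in SH1 and 143.4 in SH3. The others were low, where the added 1 FPKM shrinks differences. In the same order, MARK3 had 2.44, 0.157 and 3.21, PPM1M 3.16, 1.25 and 5.23, VEGFA 2.98, 0.497 and 4.68, and TAGLN 4.1, 1.31 and 4.92. This VEGFA transcript was lower in SH1 than in control, unlike the VEGFA sum given among the markers.

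The SL1 subunit TAF1A had 3 listed transcripts, all predicted RefSeq models. Their summed FPKM was 4.0, 1.66 and 3.05 in control, 0.74, 0.59 and 1.44 in SH1, and 2.29, 4.15 and 3.01 in SH3. All SH1 libraries lay under all control and all SH3 libraries, while SH3 overlapped control. The means ± SD were 2.90 ± 1.18, 0.923 ± 0.454 and 3.15 ± 0.938 FPKM (n = 3 each). The log2 fold change of the summed counts was -1.78 ± 0.57 in SH1 (edgeR adjusted p = 0.2443), 0.07 ± 0.55 in SH3 (0.999) and 1.84 ± 0.57 in SH3 against SH1 (0.2484). DESeq2 called the first and the last of these (adjusted p = 0.03436 and 0.02692). Without control 1 and SH1 1 the SH1 value was -1.29 (edgeR adjusted p = 0.6449).

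Within TAF1A the rows differed. XM_017002758 was measured above 0 in every library, at 2.24, 1.66 and 0.66 FPKM in control, 0.74, 0.59 and 0.86 FPKM in SH1, and 2.29, 2.09 and 0.77 FPKM in SH3. Its groups overlapped through control 3 and SH3 3. XM_017002759 was listed at 0 in all SH1 libraries, in control 2 and in SH3 1, and reached 2.39 FPKM in control 3 and 2.24 FPKM in SH3 3.

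TAF1C, another SL1 subunit, had 4 listed transcripts. Its sums were 2.58, 2.02 and 3.82 FPKM in control, 1.83, 1.98 and 3.93 FPKM in SH1, and 1.65, 4.63 and 2.93 FPKM in SH3. The groups overlapped throughout. The log2 fold change of the summed counts was -0.27 ± 0.49 in SH1 (edgeR adjusted p = 0.9868) and 0.06 ± 0.49 in SH3 (0.999). Both signs turned when single libraries were left out. NM_001243160, on chromosome 16 (chr16:84177847-84187070, minus strand), was above 0 in every library, between 0.65 and 1.75 FPKM.

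UBTF had 4 listed transcripts, all predicted models. Its sums were 4.0, 0.95 and 7.68 FPKM in control, 2.80, 2.67 and 5.25 FPKM in SH1, and 1.46, 3.06 and 2.57 FPKM in SH3. The controls spanned the values of both knockdown groups. The log2 fold change was -0.25 ± 0.55 in SH1 (edgeR adjusted p = 0.9906), a sign that turned in limma-trend and when a library was left out, and -0.81 ± 0.55 in SH3 (0.83), which was -0.11 without control 3. XM_017025004 carried most of the control spread, at 2.95, 0.00 and 6.14 FPKM. XM_024450907 had 0.00, 0.00 and 0.42 FPKM in control and 0.45, 1.59 and 0.50 FPKM in SH1, with no overlap, and did not pass edgeR (adjusted p = 0.9998).

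TTF1 here is the terminator factor of RNA polymerase I, and not the lung and thyroid factor once given the same abbreviation. Its 2 listed transcripts summed to 1.58, 5.89 and 2.76 FPKM in control, 0.39, 4.05 and 1.86 FPKM in SH1, and 1.73, 5.57 and 3.19 FPKM in SH3. In each group the second library was highest and the first lowest. The log2 fold change was -0.64 ± 0.99 in SH1 (edgeR adjusted p = 0.9695) and -0.27 ± 0.99 in SH3 (0.999), and both signs turned when single libraries were left out. With the library number as a block in the fit, the SH1 value was -1.11 ± 0.59 (edgeR adjusted p = 0.6375). NM_001205296 had 0.39, 0.00 and 0.10 FPKM in SH1 against 1.73, 2.55 and 2.45 FPKM in SH3, with no overlap, and its control libraries (0.00, 2.62 and 1.5 FPKM) covered both.

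**Figure D2:**
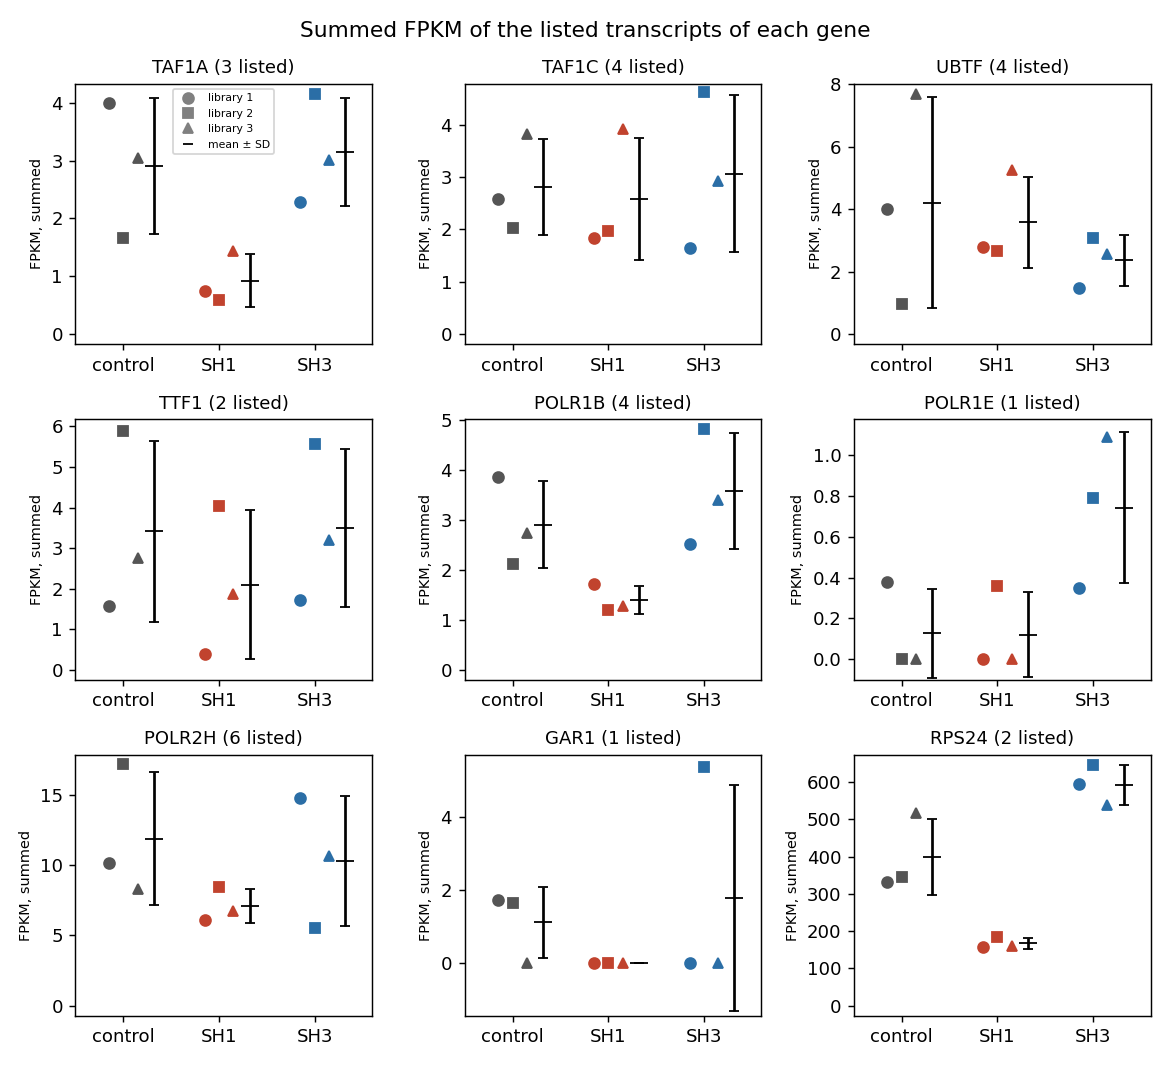
FPKM summed over the listed transcripts of each gene (vertical axes, 1 scale per panel) in each library; marker shapes are library numbers, black bars are the mean ± SD of 3 libraries, and panel titles give the number of listed transcripts. The SH1 libraries lie under all control libraries for TAF1A, POLR1B and RPS24, and GAR1 is listed at 0 in all SH1 libraries.

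POLR1B is the second largest catalytic subunit of RNA polymerase I, on chromosome 2 (chr2:112542465-112576295, plus strand). Its 4 listed transcripts summed to 3.85, 2.12 and 2.74 FPKM in control, 1.72, 1.20 and 1.28 FPKM in SH1, and 2.52, 4.82 and 3.40 FPKM in SH3. All SH1 libraries lay under all control and SH3 libraries, and SH3 overlapped control. The means ± SD were 2.90 ± 0.876, 1.40 ± 0.28 and 3.58 ± 1.16 FPKM. The log2 fold change of the summed counts was -1.20 ± 0.30 in SH1 (edgeR adjusted p = 0.1205), 0.23 ± 0.30 in SH3 (0.999) and 1.44 ± 0.31 in SH3 against SH1 (0.08068). DESeq2 called SH1 against control (adjusted p = 0.01186) and SH3 against SH1 (0.001317). Without control 1 and SH1 1 the SH1 value was -1.09 (edgeR adjusted p = 0.368).

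The POLR1B rows traded places between libraries of 1 group. In control, NM_001282777 had 346.57, 0.00 and 180.39 estimated counts while NM_001282779 had 0.00, 231.18 and 183.94. In SH1 the same rows had 21.47, 83.37 and 185.06, and 161.31, 92.63 and 4.0. A row at 0 in one library was thus the main row in another. Of the 4 rows, 3 share 1 GENCODE transcript by RefSeq name, so the split between them is uncertain and the sum is the steadier value. NM_001371971 had 217.27, 82.31 and 29.41 counts in control, 0.00, 0.00 and 5.15 in SH1, and 53.68, 138.03 and 85.33 in SH3. Its SH1 libraries lay under all others, and it was called in SH1 by DESeq2 (adjusted p = 0.002037) but not by edgeR (adjusted p = 0.5854).

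**Figure D3:**
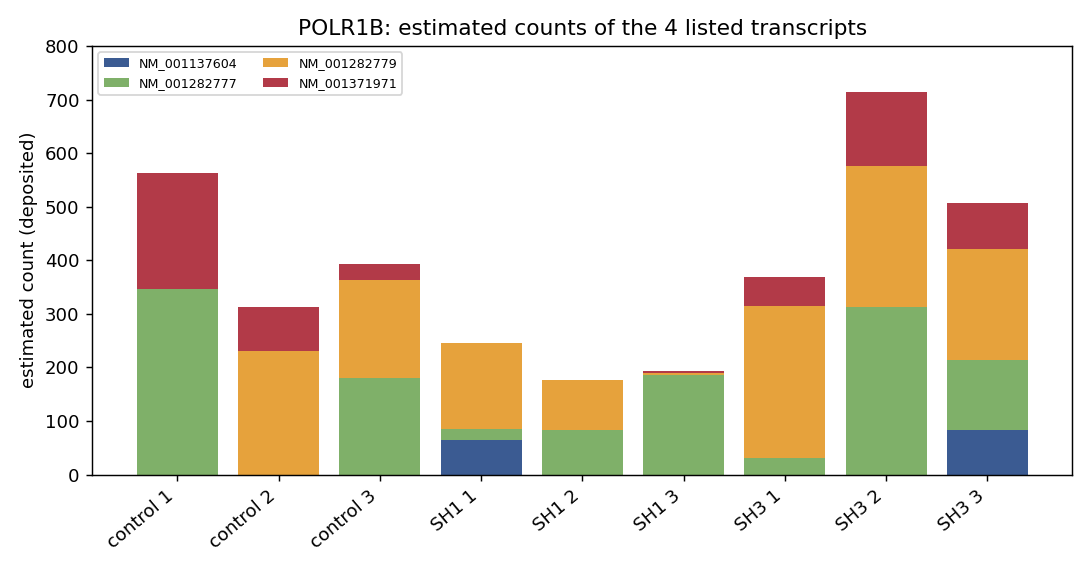
Estimated counts (vertical axis, from 0) of the 4 listed POLR1B transcripts, stacked, in each of the 9 libraries. The stack is lowest in the SH1 libraries, and which transcript makes up the stack changes between libraries of the same group.

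POLR1E, a subunit with a role in starting and elongating transcription, had 1 listed transcript at low level. NM_001282766 had 0.38, 0.00 and 0.00 FPKM in control, 0.00, 0.36 and 0.00 FPKM in SH1, and 0.35, 0.79 and 1.09 FPKM in SH3. The groups overlapped through control 1 and SH3 1. The largest of these values rests on 41.72 estimated counts. In SH1 its log2 fold change was -0.16 ± 2.26 (edgeR adjusted p = 0.9988), with 14.02 counts in 1 control library and 13.41 in 1 SH1 library and 0 in the others of both groups. Its sign turned when control 1, SH1 1 or SH1 3 was left out.

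POLR2H, a subunit shared by RNA polymerases I, II and III, had 6 listed transcripts, the most of the 9 genes. Its sums were 10.15, 17.24 and 8.27 FPKM in control, 6.07, 8.42 and 6.73 FPKM in SH1, and 14.77, 5.54 and 10.62 FPKM in SH3. SH1 overlapped control only through SH1 2 and control 3. The log2 fold change was -0.87 ± 0.45 in SH1 (edgeR adjusted p = 0.5601) and -0.25 ± 0.45 in SH3 (0.999), the latter with a sign that turned when single libraries were left out. Most of the level came from NM_001278714 (chr3:184363002-184368593, plus strand), with 6.17, 14.10 and 8.26 FPKM in control, 2.84, 6.78 and 3.97 FPKM in SH1, and 10.81, 2.11 and 6.52 FPKM in SH3.

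GAR1 is a core protein of the H/ACA ribonucleoproteins, which guide pseudouridine formation in ribosomal RNA and are part of telomerase. Its 1 listed transcript, NM_032993 (chr4:109815510-109824740, plus strand), had 1.71, 1.65 and 0.00 FPKM in control, 0.00 in each SH1 library, and 0.00, 5.34 and 0.00 FPKM in SH3. Only 3 of the 9 libraries had any count, and control 3 was at 0 like SH1. Against a floor of 3 counts over the SH1 group, control was at least 23.7-fold higher, with counting error only in that bound. EdgeR did not call it (adjusted p = 0.656). DESeq2 called the transcript (adjusted p = 3.379e-06) but gave the gene sum, which holds the same counts, no p.

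Across the 9 genes, the sums leaned lower in SH1. Each sum holds only the listed transcripts of a gene, which were selected on control 1 and SH1 1. Levels of whole genes were therefore not analysed here. All 9 log2 fold changes were negative in SH1 against control, while 51.4% of all tested sums were, and the median was -0.87 against -0.03. The signs of TAF1C, UBTF, TTF1 and POLR1E turned when single libraries were left out, and that of UBTF also in limma-trend. In 3 of 9 (TAF1A, POLR1B and RPS24) the SH1 libraries lay under all controls, against 7.33% of all sums, and in 0 they lay over them, against 12.9%. Without control 1 and SH1 1 this was again 3 of 9, against 15.6%. By edgeR 1 of 9 was called lower, where 1.08% of all sums were called lower and 1.06% higher. DESeq2 called 3 of 8 with an adjusted p, where it called 3.72% of all sums lower. Without control 1 and SH1 1, 8 of 9 were negative (48.7% of all sums), POLR1E being the exception.

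SH3 did not share this lean. Against control, 3 of 9 sums were negative (51.3% of all), the median was 0.07 against -0.03, and RPS24 was 1 of 9 with no overlap, higher (10.2% of all sums), while 0 of 9 were lower with no overlap (7.13%). By edgeR 0 of 9 sums passed, and 1 was higher at an unadjusted p under 0.05 (4.25% of all sums); DESeq2 called 0 of 8. For sums called by edgeR in SH3, 0.297% of all were higher and 0.109% lower. Directly against SH1, 1 of 9 was negative (49.6%), the median was 1.44 against 0.00, and 3 of 9 (TAF1A, POLR1B and RPS24) did not overlap and were higher, against 9.75%, with 0 lower, against 12.6%. Of these edgeR called RPS24, where 0.781% of sums were called higher and 0.578% lower, and DESeq2 called all 3, where it called 3.53% higher. These comparisons share libraries with each other and are not independent. For the average of both knockdown groups, edgeR called 0 of 9 sums (0.625% of all were called higher and 0.485% lower) and 0 of 23 transcripts (0.0743% and 0.0457%). At an unadjusted p under 0.05, 1 sum (5.31% of all) and 2 transcripts (3.41%) were lower. DESeq2 called 0 sums and 1 transcript lower, GAR1 NM_032993 (1.2% of all). Its DESeq2 log2 fold change against control was -21.5 in SH1, where each library is at 0, and 0.47 in SH3. The fall in the average thus comes from SH1.

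**Figure D4:**
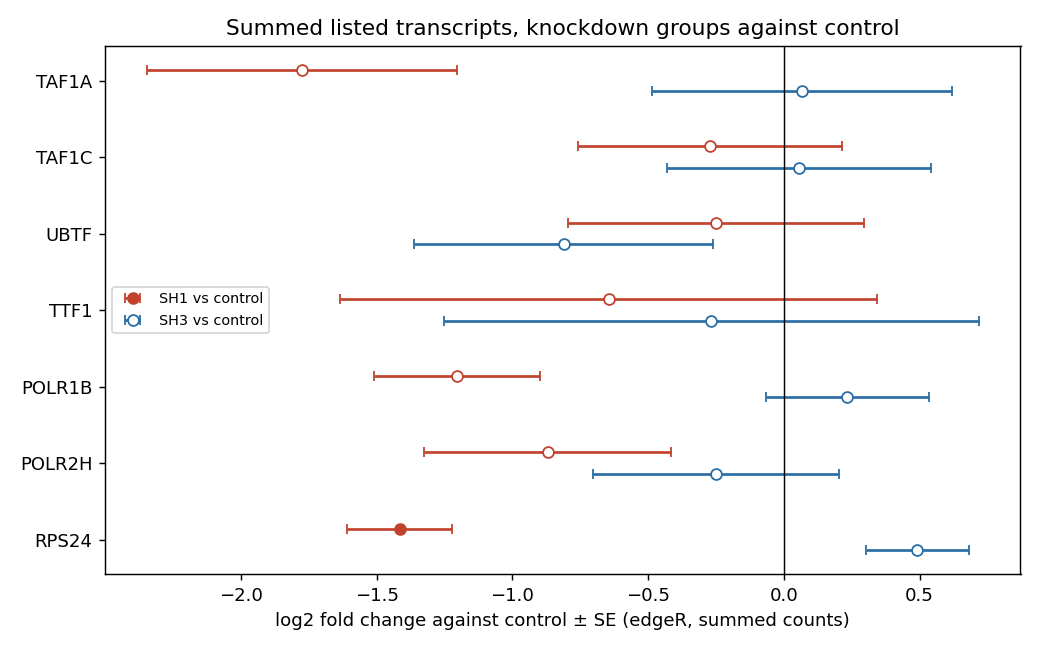
Log2 fold change of the summed counts against control (horizontal axis, edgeR, bars ± SE) for 7 genes in SH1 (red) and SH3 (blue); filled points have an adjusted p under 0.05, and GAR1 and POLR1E are left out because several of their libraries are at 0. RPS24 in SH1 (-1.41) is the filled point, and all 7 SH1 points lie under 0.

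The single transcripts were noisier than the sums. Of the 27 member transcripts, 22 had a value of 0 in at least 1 library (81.48%, against 82.75% of all listed transcripts), and 17 had a mean under 1 FPKM. Apart from NM_033022, the means ran from 0.05 to 6.84 FPKM. The filter on low counts kept 23. The 4 left out were TAF1C NM_139353, UBTF XM_017025002, POLR1B NM_001137604 and POLR2H NM_001389585. Of the 23 tested, 2 lay under all controls in SH1 (POLR1B NM_001371971 and RPS24 NM_033022; 6.45% of all) and 1 over them (UBTF XM_024450907; 9.63%). Without control 1 and SH1 1 these counts were 6 (13.8% of all) and 3 (18.9%). With all libraries, in SH3, 1 lay over all controls (RPS24 NM_033022; 7.26%) and 1 under them (TAF1C XM_006721325; 5.08%). Against SH1, 4 lay higher in SH3 with no overlap (6.68%) and 0 lower (7.84%). DESeq2 called 2 lower in SH1 (1.61% of all) and 3 higher in SH3 against SH1 (1.44%). The median coefficient of variation between libraries of a group was 101.3% for member transcripts and 40.68% for the 9 sums, close to 96.81% and 48.54% over the whole table.

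Promoter sequences of the members are described here, and whether they have a part in the values above was not tested. RefSeq (GRCh38.p14) promoter windows of 300 bases were found for 8 of the 9 genes, 12 windows in all, with none for POLR1E. Of 3 motifs searched on both strands, CTTCCGG was found in 6 of the 12 windows, against 10.26% of 35116 windows. The 6 windows belong to GAR1, POLR1B, TAF1A, TAF1C and TTF1, so windows of the same gene are counted separately. On the gene strand alone CTTCCGG was in 5 of 12, against 5.422% of all. This motif, the core bound by ETS family factors, was picked after the member promoters had been read, so its share is a description and was not tested. The windows of RPS24, UBTF and POLR2H held no CTTCCGG on either strand, and RPS24 had the only member sum called by edgeR. TAF1C and TTF1 hold the motif, and their signs in SH1 turned when single libraries were left out. CACGTG was in 1 of 12 (7.256% of all) and CTTTTCC in 2 of 12 (8.284%). The gene-strand matches in TAF1A, POLR1B, GAR1, TTF1 and TAF1C are shown with capitals marking the motif.
TAF1A: tccagaagtcaCTTCCGGggtcgaggcga
POLR1B: tgcggccactaCTTCCGGcgtgtaccgag
GAR1: ttgccgcagcaCTTCCGGgacgtcgtgct
TTF1: caacagcagcaCTTCCGGgttgggagaaa
TAF1C: cgcaggaggcaCTTCCGGtccaaaccgga
They lie at chr1:222589915-222589943 (minus strand), chr2:112542412-112542440 (plus), chr4:109815471-109815499 (plus), chr9:132406810-132406838 (minus) and chr16:84187045-84187073 (minus).

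Other genes of the pathway were taken from lists written by function, with the 9 members removed. By edgeR on sums, 0 genes passed in either direction in SH1 or SH3 in any of 8 lists. In SH1 the lists of Pol I initiation (8 genes tested), small nucleolar ribonucleoproteins (7), small subunit assembly (13) and large subunit assembly (21) had medians of -0.39, -1.10, -0.96 and -0.60, against -0.03 for all sums. Control 1 and SH1 1, on which the table was selected, are part of these medians. Medians of the lists of RNA polymerase subunits are not given here. At an unadjusted p under 0.05 in SH1, 2 of 8 Pol I initiation genes were lower and 0 higher, and 2 of 21 large subunit assembly genes were lower and 1 higher, where 6% of all sums were lower and 5.5% higher. DESeq2, which called 3.72% of all sums lower and 3.74% higher in SH1, called 1 of 8 Pol I initiation genes lower and 1 of 21 large subunit assembly genes higher. Of 7 subunits of RNA polymerases II and III it called 1 higher and 1 lower. In SH3, where it called 2% of all sums lower and 2.09% higher, it called 2 of 21 large subunit assembly genes lower and 1 of the 7 subunits higher. Without control 1 and SH1 1, edgeR called 1 of the 7 subunits lower in SH1, where it called 0.487% of all sums lower. Counts this small in lists of this size are not read as a result about the lists. In SH3 the lists of Pol I initiation, small nucleolar ribonucleoproteins, small subunit assembly and large subunit assembly had medians of -0.36, -0.02, -0.73 and -0.26. Ribosomal proteins of the large subunit (6 genes tested) had a median of -0.05 in SH1 and -0.27 in SH3. Only 3 of 34 small subunit ribosomal protein genes are in the table, RPS24 among them. The 2 others had a median of 0.82 in SH1 and 1.90 in SH3, and those not in the table were not analysed here.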

How the data were processed

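RNA-seq values of 9 Caki-1 libraries were read from the deposited table, each column assigned by its library's title (0 columns of per-sample values left unassigned). Per the file headers, the authors give an estimated count, FPKM, TPM and a normalized read count per transcript. Estimated counts as deposited (expected counts, of which 65.11% are not whole) were rounded for the tests, the deposited FPKM describes levels, the deposited TPM gave the listed share, and the deposited normalized count, a signal, equals the count rounded up over 1 factor per library and was not used in tests. Per the submitters' processing notes the build is mm10, whereas 20900 rows carry human gene numbers; the values were read as human. The aligner and quantifier are not given in the sources used here.

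Transcripts, and counts summed per gene, were tested with edgeR 4.0.16 (R 4.3.3): TMM, filterByExpr with minimum count 10, robust quasi-likelihood, 1 fit of all 9 libraries, Benjamini-Hochberg over all rows, threshold 0.05. SE is the fold change over the square root of F. DESeq2 1.42.0 and limma 3.58.1 were alternatives. A first edgeR fit recomputed library sizes after filtering and a first DESeq2 fit used all rows with a count; both were replaced after their results were seen and are kept as added alternatives. The members and lists were chosen with earlier results of these data known. All 9 members are named, and of the other listed genes those past 0.05 in edgeR in any comparison; nearest patterns are the 5 rows with the smallest difference. GENCODE v29 gave positions for 13 of the 27 member rows.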

Additional observations from a re-analysis of the deposited data

Results flagged for a closer look

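RPS24 NM_033022, and the sum of the 2 listed RPS24 transcripts, differed between the 2 knockdown groups when these were tested against each other. NM_033022 was higher in SH3 than in SH1 by 1.91 on the log2 scale (edgeR adjusted p = 0.009769), and the RPS24 sum by 1.91 (adjusted p = 0.003432). All 3 SH3 libraries were above and all 3 SH1 libraries below the 3 controls. Of all tested transcripts 7.26% lay over control in SH3 and 6.45% under it in SH1, and of all sums 10.2% and 7.33%. SH3 against control did not pass in edgeR (adjusted p = 0.8207 for NM_033022 and 0.5373 for the sum). The NM_033022 call was lost without any single SH1 library, without SH3 1, or without control 1 and SH1 1 (edgeR adjusted p = 0.09272).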

How the results depend on the processing

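Of 20 alternatives per result, the RPS24 sum kept its direction in all for SH1 against control (log2 fold change -1.56 to -1.19) and its call in 17, and for SH3 against SH1 its call in all 20. The number of member transcripts called in SH1 was 1; it was 2 in DESeq2 (POLR1B NM_001371971 and GAR1 NM_032993, without RPS24), and 0 with only the groups compared, with the replicate block, and without control 1 and SH1 1. Leaving out single libraries gave 0 to 1. For the average of both groups it was 0, and 1 in DESeq2. For SH3 against SH1 it was 1, and 3 in DESeq2, 0 without control 1 and SH1 1, and 0 to 1 without single libraries. Called member sums in SH1 numbered 1, 3 in DESeq2, 0 with only the groups compared, and 0 to 1 without single libraries; in SH3 against SH1 1, and 3 in DESeq2. Counts for SH3 against control were 0 in all 20 alternatives. A pair of alternatives was chosen after seeing the data: library sizes of the filtered rows changed no count, and DESeq2 on all rows with a count gave 2, 1 and 2 transcripts and 3 and 3 sums in the comparisons above, with RPS24 NM_033022 not called in SH3 against SH1 (adjusted p = 0.1156).

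Signs turned in these ranges without single libraries: POLR1B in SH3 -0.04 to 0.44, TAF1A in SH3 -0.21 to 0.34, POLR2H in SH3 -0.54 to 0.15, TAF1C in SH1 -0.70 to 0.01 and in SH3 -0.37 to 0.36 (-0.02 without control 1 and SH1 1), UBTF in SH1 -0.67 to 0.45 (0.01 in limma-trend), TTF1 in SH1 -1.65 to 0.03 and in SH3 -0.96 to 0.41 (0.06 in limma-trend), and POLR1E in SH1 -5.27 to 5.12 (5.69 without control 1 and SH1 1; limma-trend and the fit of only the groups compared gave it no value). The cause was not tested. Control 1 and SH1 1 had a correlation of -0.275. Every listed transcript differs by at least 2-fold between these libraries, and that selection bears on the value, so it cannot decide whether they pair. The other 8 same-numbered pairs had correlations of -0.104 to 0.032, against -0.101 to 0.189 for pairs of unlike number. Deviations were centred within each group, so the selection also bears on the other pairs of control with SH1. Between SH3 and the other groups, same-numbered pairs had -0.004 to 0.032 and pairs of unlike number -0.043 to 0.024. Values this small cannot decide whether the libraries pair. The main fit did not use the numbers as pairs. With the replicate block NM_033022 in SH1 was -1.36 and lost its call (edgeR adjusted p = 0.09946), while the block changed no call of the sums. Low counts limit all genes but RPS24.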
